A study of Mus musculus with 4 samples.

Results

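The regions described are the CTCF peaks around Ciita and Cd74, genes of antigen presentation by major histocompatibility complex (MHC) class II. Members were all deposited peaks with a midpoint in either of 2 mm9 windows: 10100000 to 10900000 on chromosome 16, named for Ciita, and 60600000 to 61300000 on chromosome 18, named for Cd74. The Ciita window (800 kb) held 34 B cell and 25 plasmablast peaks, and the Cd74 window (700 kb) held 36 and 25. These 120 peaks were drawn from 67467 in both lists, 36381 in B cells and 31086 in plasmablasts.

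CTCF chromatin immunoprecipitation was sequenced with 1 library per cell type, each with an input library that was not analysed here. The B cells were the CD43- fraction of C57BL/6 spleens from mice 6 weeks old. The plasmablasts were CD138+ spleen cells of C57BL/6 mice injected at 6 weeks of age with 50 µg lipopolysaccharide (LPS) and taken after 3 days. No pooling of animals is stated, no input or expression value was used, and the cell labels could not be checked against marker genes from peak positions. Since each cell type is a single library, nothing measures the spread between replicates and differences are given without a test. The labels place B cell libraries on a Genome Analyzer II and plasmablast libraries on a HiSeq 2000, so cell type and instrument cannot be told apart.

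As background, Ciita encodes the class II transactivator, a non-DNA-binding coactivator recruited to class II promoters by the RFX, CREB and NF-Y factors. Its expression largely decides whether a cell makes MHC class II. Cd74 encodes the invariant chain, which occupies the groove of newly made class II dimers and guides them to the endosomal compartment where peptides are loaded, and it is itself a target of the transactivator. B cells express both, whereas plasma cells silence Ciita through the repressor Blimp-1, the product of Prdm1. CTCF is an insulator and loop-anchor protein, and sites of it in the MHC class II region are known to contact class II promoters.

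In the RefSeq gene table (assembly GRCm38.p6), the 5 protein-coding genes on one side of Ciita, nearest first, are Tvp23a, Nubp1, Tekt5, Emp2 and Atf7ip2, and on the other Dexi, Clec16a, Socs1, Tnp2 and Prm3. Cd74 is flanked by Rps14, Ndst1, Synpo, Myoz3 and Rbm22 on one side and by Tcof1, Arsi, Camk2a, Slc6a7 and Cdx1 on the other. That table is on another build than the peaks, so it served for gene order only. No peak could be assigned to a promoter, intron or exon, and neither mm9 annotation nor mm9 sequence was used here.

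Both windows were dense in CTCF peaks. The Ciita window had 42.5 B cell and 31.2 plasmablast peaks per Mb, against 12.2 and 10.4 over chromosome 16 (peaks per Mb between its first and last peak). The Cd74 window had 51.4 and 35.7 per Mb, against 11.5 and 9.79 over chromosome 18. When the autosomes were tiled in steps of 800 kb, a tile held a median of 8 B cell peaks (quartiles 1 and 19), and 7.53% of the 2988 tiles held as many as the Ciita window. In steps of 700 kb the median was 7 (quartiles 1 and 17), and 3.93% of 3413 tiles held as many as the Cd74 window.

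Neighbouring sites, taken over both lists, lay a median of 11.4 kb apart in the Ciita window and 12.8 kb apart in the Cd74 window, compared with 18.04 kb genome-wide. The sites did not fill the windows evenly. In the Ciita window the first site lay 172.6 kb from the lower boundary, and the widest gap between neighbours (82.0 kb) separated chr16:10313297-10313601 from chr16:10395289-10395593. In the Cd74 window the widest gap was 62.0 kb, from chr18:60640738-60641042 to chr18:60702768-60702946. Beyond the Cd74 window the density fell to 0 on the lower side. Neither list held a peak in the 200 kb below that window, and the 200 kb above it held 3 B cell and 5 plasmablast peaks. The Ciita cluster continued upward instead. The 200 kb above its window held 15 B cell peaks, of which 6 were shared, and 6 plasmablast peaks, of which 0 were plasmablast only. The 200 kb below held 2 B cell peaks, both shared, and 3 plasmablast peaks, of which 1 was plasmablast only. Genome-wide, 67.9% of B cell peaks were shared and 20.5% of plasmablast peaks were plasmablast only.

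Every plasmablast peak in the Ciita window was also a B cell peak. Peaks of the lists that had at least 1 bp in common were taken as 1 shared site. All 25 plasmablast peaks were shared (100%, exact Clopper-Pearson 95% binomial interval 86.3 to 100%), so plasmablast-only peaks numbered 0, where genome-wide 20.5% of plasmablast peaks were plasmablast only. Taken as 3 counts of the total, a count of 0 among 25 peaks allows a share of up to 12.0%, a rule of thumb that lies slightly below the bound of the exact interval. Of 513 autosomal tiles of 800 kb with at least 20 plasmablast peaks, 12 likewise held no plasmablast-only peak, and the median number was 4. In the other direction 25 of 34 B cell peaks were shared (73.5%, interval 55.6 to 87.1%). The remaining 9 were B cell only, or 26.5%, compared with 32.1% of B cell peaks genome-wide, a value inside the counting error.

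In the Cd74 window 15 B cell sites were missing from the plasmablast list. Of 36 B cell peaks 21 were shared (58.3%, interval 40.8 to 74.5%) and 15 were B cell only (41.7%). Of 25 plasmablast peaks 21 were shared (84.0%, interval 63.9 to 95.5%) and 4 were plasmablast only (16%). Both intervals include the genome-wide shares of 67.9% and 79.5%. The intervals cover counting error only and treat neighbouring sites as independent. Whether the windows differ from each other in these shares was not tested. Their order in the B cell share turned around when both lists were cut at their median score. Of the B cell peaks kept, 63.6% were shared at Ciita and 93.8% at Cd74. In that setting a B cell peak counts as unshared if its plasmablast partner falls below the plasmablast median. Against the whole plasmablast list, 1 of 22 such B cell peaks at Ciita and 1 of 16 at Cd74 were unshared.

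**Figure D1:**
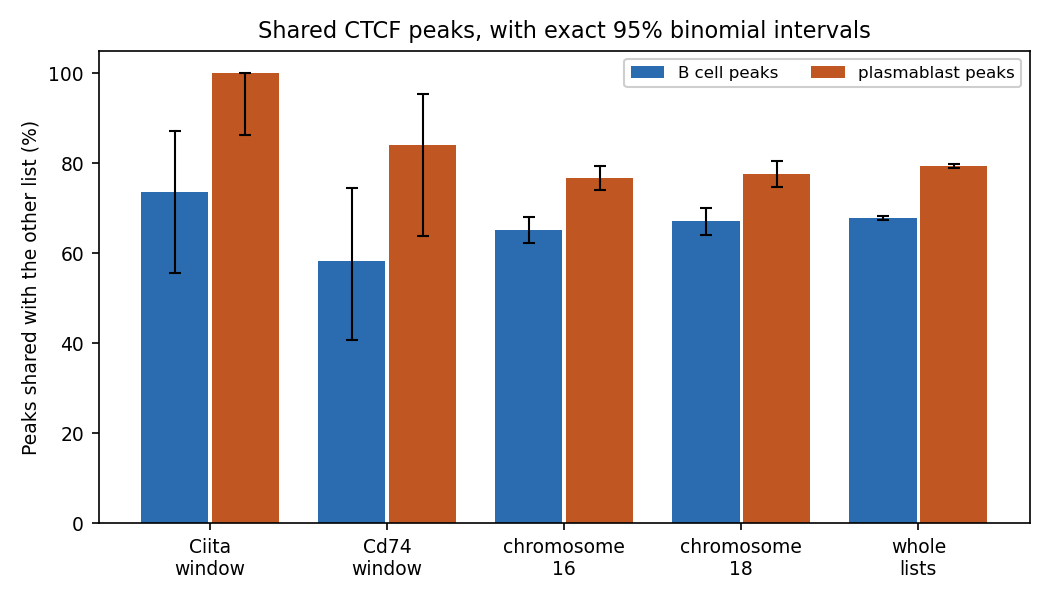
Percentage of peaks shared with the other list (vertical axis) in the Ciita and Cd74 windows, on their chromosomes and over the whole lists, for B cell peaks (blue) and plasmablast peaks (orange); bars start at 0 and error bars are exact 95% binomial intervals. The plasmablast bar of the Ciita window stands at 100% with a lower bound of 86.3%, above the 79.5% of the whole list, whereas the intervals of the other 3 window bars include the whole-list values. The intervals cover counting error only, treat neighbouring sites as independent and do not measure spread between libraries.

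Sites listed in B cells alone were mostly weak in the B cell list. Strength is given as the score the authors deposited for each peak and as its percentile in its own list, since the unit of the score is not stated and scores of different lists are not comparable. The 9 B cell only peaks of the Ciita window had scores of 12.0 to 76.9 with a median of 16.7, whereas the 25 shared B cell peaks ran from 38.0 to 274.2 with a median of 163.9. In the Cd74 window the 15 B cell only peaks scored 11.1 to 88.9 (median 25) and the 21 shared ones 19.4 to 265.8 (median 185.2). The classes overlapped in score in both windows. Genome-wide the medians were 24.1 for B cell only and 104.7 for shared peaks, so the median shared site of either window scored higher in B cells than the median shared site of the genome.

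Of the B cell peaks at or above the list's median score of 62.1, the Ciita window held 22 and the Cd74 window 16, and 1 in each was B cell only; genome-wide this was 6.10%. At Ciita the peak was chr16:10518156-10518460, with a score of 76.9 at the 56.3rd percentile. It lay in a close group, and the nearest plasmablast midpoint, 3177 bp away, belonged to the shared site chr16:10521322-10521626. At Cd74 it was chr18:61041066-61041370, with a score of 88.9 at the 60.7th percentile, and the nearest plasmablast midpoint was 22286 bp away. A plasmablast peak was thus listed close to the former and none near the latter.

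The Ciita window had 15 plasmablast peaks at or above the list's median score of 19.4, all shared, and the Cd74 window had 16, of which 1 was plasmablast only; genome-wide 10.3% of such peaks were plasmablast only. That peak, chr18:60702768-60702946, had a score of 20.8 at the 52.4th percentile and lay 17938 bp from the nearest B cell midpoint. The 3 other plasmablast-only peaks of the Cd74 window were weaker. Of these, chr18:61018157-61018335 (score 13.7, 37.7th percentile) lay 663 bp from the midpoint of a strong shared site, the closest pair of neighbours in that window. Similarly, chr18:60756885-60757063 (score 10.0, 26.1st percentile) lay 1127 bp from a B cell midpoint, and chr18:61245875-61246053 (score 7.5, 15.8th percentile) lay 9034 bp from one.

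Some of the B cell only peaks lay in series along the chromosome, which were picked out after their values were seen. Stretches picked in this way hold more B cell only peaks than the 32.1% of the whole list by construction. From chr16:10447884 to 10518460, a stretch of 70.6 kb in the Ciita window, 5 of 6 B cell peaks were B cell only. Their scores ran from 12.0 to 76.9, with a median percentile of 3.77. Below the 10th percentile, 12.27% of all B cell peaks were shared. The stretch began with a run of 3 consecutive B cell only sites, and 839 of 7916 runs genome-wide were at least that long. The single site of this stretch that was listed in plasmablasts, chr16:10503182-10503486, had a B cell score of 91.7 (61.6th percentile) and a plasmablast score of 11.9 (32.7th percentile). The Cd74 window held a longer series. From chr18:60971708 to 61112362, over 140.7 kb, 9 of 11 B cell peaks were B cell only, with scores of 11.1 to 88.9 and a median of 24.1. Their midpoints lay 10.1 to 40.8 kb from the nearest plasmablast midpoint, so none had a plasmablast peak beside it.

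The 2 shared sites inside that Cd74 series were strong in both lists. At chr18:61018757-61019061 the B cell score was 189.9 (85.0th percentile) and the plasmablast score 56.6 (90.9th), and at chr18:61101978-61102282 they were 201.9 (87.3rd) and 37.2 (74.5th). Around them lay 8 B cell only peaks below the list's median score, the peak scoring 88.9 named above, and the plasmablast-only peak chr18:61018157-61018335. The series included 2 runs of 4 consecutive B cell only sites, uninterrupted by any site of another class. Genome-wide there were 312 runs of at least 4 among 7916 runs of any length, so such runs were not particular to this window.

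**Figure D2:**
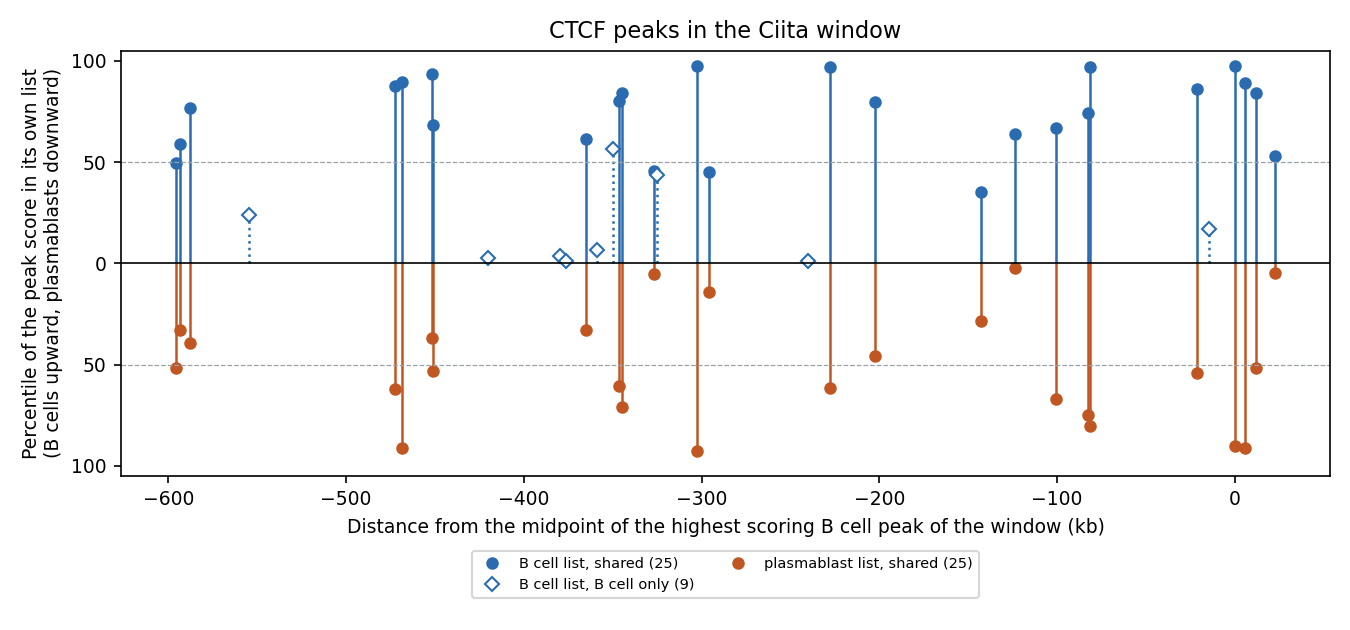
CTCF peaks of the Ciita window by distance in kb from the midpoint of its highest scoring B cell peak (horizontal axis), with the percentile of each peak's score in its own list drawn upward for B cells (blue) and downward for plasmablasts (orange); filled circles are shared peaks, open diamonds B cell only peaks, and dashed lines the 50th percentile. No open symbol points downward, and of the 9 open diamonds 1 lies above the 50th percentile.

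**Figure D3:**
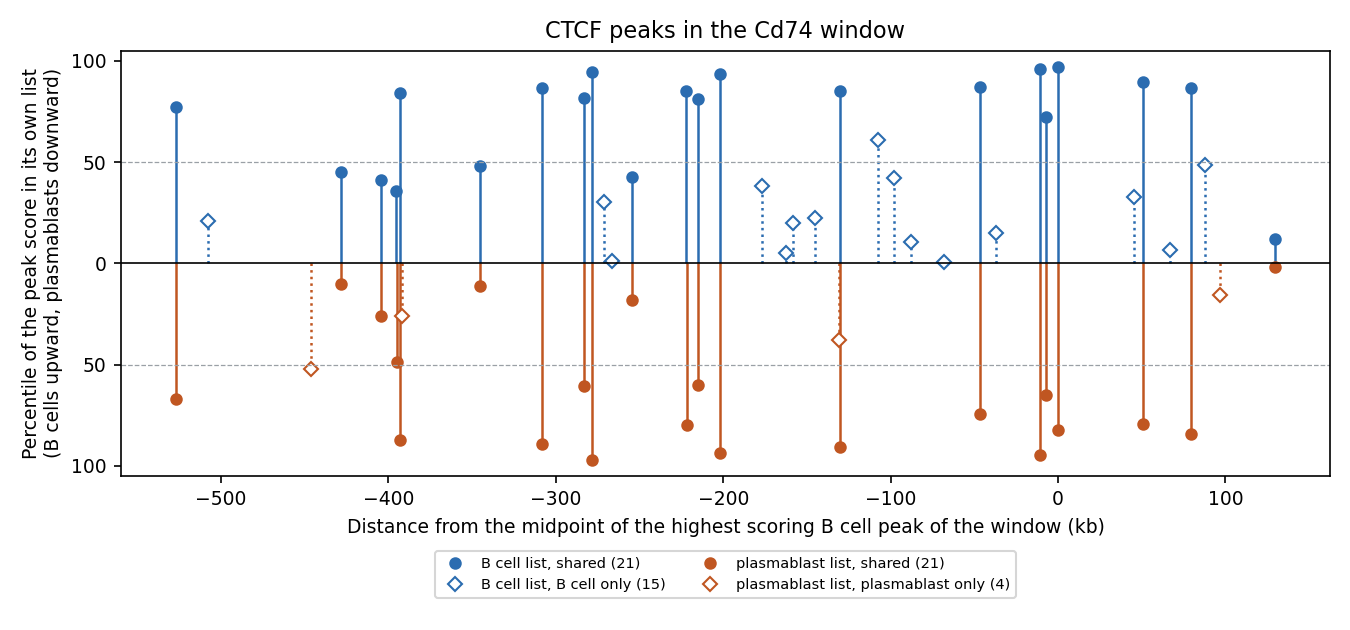
CTCF peaks of the Cd74 window drawn in the same way, with open diamonds for the 15 B cell only peaks (upward) and the 4 plasmablast-only peaks (downward). The long series of B cell only peaks lies in the 200 kb to the left of the highest scoring B cell peak, interrupted by 2 tall shared sites.

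The strongest sites of the Ciita window were present in both cell types. In B cells the highest was chr16:10868045-10868349, with a score of 274.2 at the 97.6th percentile, and its plasmablast score was 55.4 at the 90.1st. The next, chr16:10565632-10565936, scored 271.4 (97.4th percentile) in B cells, and at 60.0 (92.7th) it was the highest plasmablast peak of the window. These sites therefore ranked high in both lists. A pair of peaks tied at 267.7 (97.0th percentile) in B cells differed in plasmablasts. The plasmablast score was 42.7 (80.2nd percentile) at chr16:10786488-10786792 and 26.9 (61.7th) at chr16:10640154-10640458. The next in B cells was chr16:10416142-10416446 at 239.0 (93.5th percentile), where the plasmablast score was 13.4, at the 36.7th percentile. The plasmablast top 5 also held chr16:10399343-10399521 (57.7, 91.5th percentile) and chr16:10873807-10873985 (57.1, 91.2nd percentile), with B cell scores of 213.0 and 211.2 at these sites.

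In the Cd74 window the strongest B cell sites ranked high in plasmablasts as well. The B cell peak chr18:61148804-61149108 scored 265.8 (96.9th percentile) and its plasmablast counterpart 44.9 (82.1st). Next came chr18:61138049-61138353 with 255.6 (95.8th) in B cells and 64.1 (94.6th) in plasmablasts. The third, chr18:60870297-60870601, scored 246.4 (94.6th) in B cells, and its 73.0 (97.4th) was the highest plasmablast score of either window. For chr18:60946725-60947029 the scores were 237.1 (93.3rd) and 61.8 (93.6th), and for chr18:61199500-61199804 they were 214.9 (89.7th) and 42.0 (79.6th). At 3 of these 5 sites the percentiles in the lists lay less than 3 points apart. The plasmablast top 5 was completed by chr18:61018843-61019021 (56.6) and chr18:60840655-60840833 (54.3, 89.4th percentile, with 198.2 in B cells).

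At or above the 90th percentile of their own list stood 5 B cell and 4 plasmablast peaks of the Ciita window, and 4 and 4 of the Cd74 window. These were 14.7% and 16%, and 11.1% and 16%, of the peaks there, against 10.1% and 10.0% in the whole lists. All of them were shared, as were nearly all such peaks genome-wide. In the whole lists, 12 of 3669 B cell and 99 of 3111 plasmablast peaks in that range were unshared.

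Across the shared sites of the Ciita window, plasmablast ranks were lower than B cell ranks. The plasmablast percentile minus the B cell percentile had a median of -25.61 points over 25 sites (quartiles -33.82 and -6.56), and 20 of 25 differences were negative (80%, against 66.0% of all shared sites). Over all 24702 shared sites the median was -7.16 (quartiles -21.34 and 4.30). The lists differ in length, and the B cell list has more unshared peaks, mostly at its lower end, so percentiles of shared peaks run higher in it and a negative difference does not by itself show a loss of binding. In the Cd74 window the median was -10.05 over 21 sites (quartiles -15.26 and 0.33), with 15 negative (71.4%). Ranked among the shared peaks only, which are equal in number in both lists, the medians were -15.81 at Ciita, -1.42 at Cd74 and -0.45 over all shared sites.

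A difference of at least 20 percentile points in favour of B cells was found at 13 of 25 shared sites in the Ciita window and 5 of 21 in the Cd74 window, compared with 26.9% of all shared sites. The 5 at Cd74 (23.8%) were thus near the background, whereas the 13 at Ciita (52.0%) were above it. The opposite difference occurred at 0 of the 46 sites, against 8.12% genome-wide, but 25 of the 46 lay above the 80th B cell percentile and could not show it. Among sites up to that percentile the counts were 0 of 21 in the windows and 11.5% genome-wide. That share is not matched in B cell strength. It takes in the weakest shared sites, whose median difference was positive (13.46 at percentiles 0 to 10). Strength in B cells differed between these sets, since the median B cell percentile of shared sites was 79.7 at Ciita, 84.1 at Cd74 and 65.4 genome-wide. Within the top 25% of the B cell list, the 14 shared sites at Ciita had a median difference of -22.43 points, the 14 at Cd74 one of -3.79, and all 8990 such shared sites one of -6.98. Between the 50th and 75th percentiles the 7 sites at Ciita had a median of -26.28 and the 1 at Cd74 a value of -7.26, against -11.80. Below the 50th percentile the medians were -18.93 over 4 sites at Ciita and -19.78 over 6 at Cd74, against -2.58 genome-wide. That last value is not matched in B cell strength. It pools in weaker sites, with medians of 13.46 at percentiles 0 to 10 and 6.35 at 10 to 20. At percentiles 10 to 20 Ciita had 0 shared sites and Cd74 had 1, with a value of -10.34 against 6.35. At percentiles 30 to 40 the values were -6.56 (1 site) at Ciita and 12.67 (1 site) at Cd74, against -6.77. At 40 to 50 the medians were -31.3 (3 sites) and -29.66 (4 sites), against -9.25. Neither window's difference from the rest was tested.

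The 3 largest differences at Ciita were all towards B cells. The site chr16:10744392-10744696 had a B cell score of 100 (64.1st percentile) and a plasmablast score of 4.5 (percentile 2.51), a difference of -61.59 points and the lowest plasmablast score of that window. At chr16:10416142-10416446, among the 5 strongest B cell sites, it was -56.86. At chr16:10890465-10890769 the B cell score was 68.5 (53.0th percentile) and the plasmablast score 5.2 (percentile 4.70), a difference of -48.33. The 3 largest differences in the other direction were small: 2.21 points at chr16:10272498-10272802, 2.17 at chr16:10873747-10874051 and 2.12 at chr16:10399299-10399603. No site of the Ciita window thus ranked appreciably higher in plasmablasts.

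At Cd74 the largest differences involved sites of middling B cell strength. The site chr18:60803238-60803542 scored 58.3 (48.2nd percentile) in B cells and 6.6 (11.1st) in plasmablasts, a difference of -37.10 points. At chr18:60720643-60720947 the scores were 52.8 (45.3rd) and 6.4 (10.3rd), a difference of -35.02, and at chr18:60894365-60894669 they were 48.2 (42.6th) and 8.0 (18.3rd), a difference of -24.29. All 3 lay in the lowest 20% of the plasmablast list. The largest difference in favour of plasmablasts was 12.67 points, at chr18:60753611-60753915 (38.9 in B cells and 18.7 in plasmablasts). It was followed by 5.85 at chr18:61018757-61019061 and 3.22 at chr18:60755695-60755999.

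**Figure D4:**
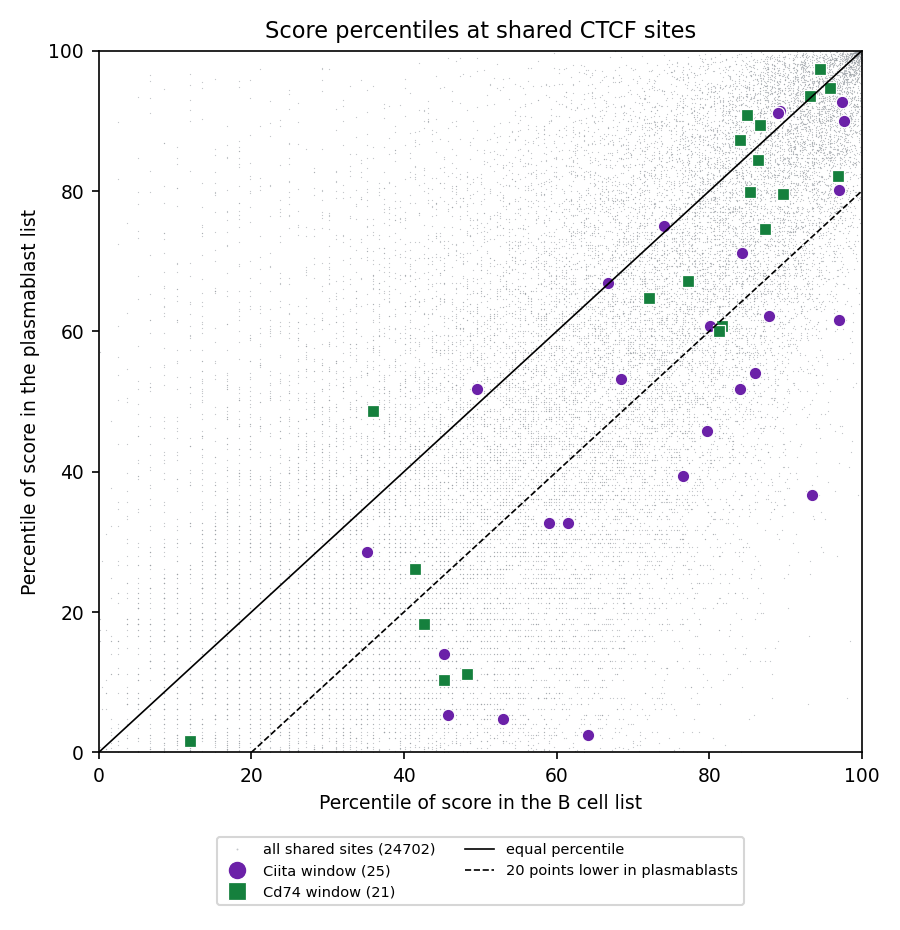
Percentile of the score in the B cell list (horizontal axis) against that in the plasmablast list (vertical axis) at the 25 shared sites of the Ciita window (purple circles), the 21 of the Cd74 window (green squares) and all 24702 shared sites (grey points); the solid line marks equal percentiles and the dashed line 20 points lower in plasmablasts. Of the Ciita circles, 13 lie on or below the dashed line, while 5 of the Cd74 squares do.

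Score order was otherwise similar between the cell types. Spearman's rank correlation between the B cell and plasmablast scores was 0.77 over the 25 shared sites of the Ciita window and 0.86 over the 21 of the Cd74 window, against 0.70 over all shared sites. These are correlations across sites of the same 2 libraries and are given as descriptions.

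Close pairs of sites gave a comparison within the same stretch of DNA. The Ciita window held 3 pairs of neighbouring shared sites with midpoints within 2 kb, and the Cd74 window held none. In the closest, 817 bp apart, the B cell scores were 239.0 at chr16:10416142-10416446 and 115.8 at chr16:10416959-10417263, whereas the plasmablast scores were 13.4 and 21.4. The stronger site of this pair in B cells was thus the weaker one in plasmablasts. Such a reversed order occurred in 28.3% of the 995 close pairs genome-wide. The other 2 pairs kept their order. At chr16:10521322-10521626 and chr16:10522957-10523261 the scores were 165.8 and 186.2 in B cells and 26.3 and 34.4 in plasmablasts. At chr16:10785118-10785422 and chr16:10786488-10786792 they were 138.9 and 267.7 in B cells and 37.7 and 42.7 in plasmablasts.

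Shared peaks were placed at nearly the same positions in both lists. Their midpoints lay a median of 15 bp apart in the Ciita window and 14 bp apart in the Cd74 window, against 17 bp genome-wide. Within 50 bp of each other lay 22 of 25 (88%) and 21 of 21 pairs of midpoints, against 88.2% genome-wide. The widest offset, 108 bp, was at chr16:10272498-10272802, the site with the largest rank difference in favour of plasmablasts in its window. B cell peaks were 305 bp and plasmablast peaks 179 bp wide throughout both windows.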

How the data were processed

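CTCF peaks from 1 B cell and 1 plasmablast library were analysed. Bowtie, HOMER and mm9 are named in the submitters' processing notes. Not given in the sources used here are versions, thresholds, pooling and use of the input. The deposited lists give each peak a score made by the authors, whose unit is not stated, so it was used only for rank within its list. Library depth is unknown. BED starts were raised by 1. Percentiles are midranks. Each peak was matched to the nearest overlapping peak of the other list (bedtools 2.31.1 gave the same shared count, 24702). The overlap step was tested on simulated data made by shifting the peaks of the B cell list. Peak width and number were therefore equal in both simulated lists, unlike in the real ones. Members, lists and comparisons were chosen with earlier results of these data known. By rule, the text names in each window the 5 highest scoring peaks of each list, unshared peaks at or above the list's median score, the 3 largest percentile differences in each direction, and the closest and farthest neighbours; other named peaks were chosen after their values were seen. Alternatives covered the overlap rule, list threshold, window width and ranking. Python 3.11.15, numpy 2.4.6, pandas 2.3.3, scipy 1.17.1 and matplotlib 3.10.9 were used.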

Additional observations from a re-analysis of the deposited data

How the results depend on the processing

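Alternative values were set against the interval of the value reported (exact binomial for shares, order-statistic for medians). These intervals are wide, so staying inside one is a weak criterion. For the median difference they ran from -32.33 to -7.56 points at Ciita and from -15.26 to 0.33 at Cd74. Of 44 alternative values, 42 stayed inside and 2 moved, and 0 median differences changed sign, which a share cannot do. Both that moved concern the shared percentage of B cell peaks in the Cd74 window, 58.3%, which became 78.9% with the 20000 highest scoring peaks of each list and 93.8% with peaks at or above the median score of their list; these settings leave fewer, stronger peaks. At Ciita the same settings gave 72% and 63.6% (73.5% in the whole lists), so the order of the windows was turned around under both. Each setting cuts both lists, so a B cell peak whose plasmablast partner was cut counts as unshared. In the Ciita window, the shared percentage of plasmablast peaks ran from 93.3% to 100% over the alternatives. The site chr16:10272498-10272802, with midpoints 108 bp apart, went unmatched under 50% reciprocal overlap and under a midpoint limit of 100 bp. It was also unmatched among peaks at or above the median, since its B cell score of 61.1 lay below 62.1. Widening the window by 200 kb on each side gave 97.06%, with 1 plasmablast-only peak in the 200 kb below. The median percentile difference at Ciita ran from -28.11 to -15.81. At Cd74 that difference ran from -10.92 to -1.42. No replicate could be left out, and no paired analysis was possible because each cell type has 1 library. Library depth is unknown, and absence from a list does not show absence of binding.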
